A study of Mus musculus with 6 samples.

Results

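The 3 array probes described here detect the miR-148 and miR-152 family, mmu-miR-148a, mmu-miR-148b and mmu-miR-152. They were taken by name from the 707 mouse miRNA probes of the array, as the unstarred mature strands, and each was printed as 5 spots. RNA came from whole dorsal skin of the inbred mouse strain C3H/HeJ. One group was 3 arrays of skin that had lost hair to spontaneous alopecia areata (AA), in which the immune system attacks hair follicles, and the other was 3 arrays of haired skin from unaffected mice. Each array held 1 sample stained with Cy3. No genetic change, treatment or age is named for either group. The design note speaks of several samples from each mouse without tying them to arrays, so which arrays share a mouse is not known and the spread between arrays may in part be technical. The family was selected on its normalized intensities in this contrast of AA with unaffected arrays, which were already known, so its differences are a description with no test.

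MiRNAs guide silencing complexes to transcripts that pair with the seed, a short stretch near the 5′ end of the mature strand, and miRNAs with one seed can act on overlapping sets of transcripts. Members of this family are known to act on the transcript of DNA methyltransferase 1, which maintains DNA methylation. In mouse dendritic cells they restrain antigen presentation through the calcium-dependent kinase CaMKII alpha, and in mouse B cells miR-148a is known to weaken the removal of self-reactive cells. In human cells they act on HLA-G, and miR-148a on HLA-C. In whole skin, fewer cells that make a miRNA and less of it per cell cannot be told apart.

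The mature strands are shown because the seed and the few bases that separate the members define both the family and what the probes can resolve. Sequences are RefSeq's on GRCm38.p6, and all 3 were identical to the target sequences in the array files. Capitals mark the seed, bases 2 to 8 from the 5′ end.
miR-148a: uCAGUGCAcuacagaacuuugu
miR-148b: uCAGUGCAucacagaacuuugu
miR-152: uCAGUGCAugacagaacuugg
The seed CAGUGCA was carried by these 3 of the 707 probes and by no other probe of the array. Counted from the 5′ end, miR-148b differs from miR-148a by C9U and U10C. Over its 21 bases miR-152 differs from miR-148b by C10G and U20G, and from miR-148a by C9U, U10G and U20G. It also ends 1 base earlier. The targets of miR-148a and miR-148b are 2 edits apart, those of miR-148b and miR-152 are 3 apart, and those of miR-148a and miR-152 are 4 apart, so one miRNA may bind the probe of another, and the 3 readings were not treated as independent. The nearest target outside the family was 7 edits from miR-148a (mmu-miR-382*), 7 from miR-148b and 8 from miR-152 (mmu-miR-101a* for both).

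The 3 genes lie on different chromosomes of GRCm38.p6. The mature miR-148a strand lies at chr6:51269829-51269850 on the minus strand, within the span of the gene model Gm38821. The miR-148b strand lies at chr15:103285185-103285206 on the plus strand, within Copz1. The miR-152 strand lies at chr11:96850439-96850459 on the plus strand, within Copz2. Copz1 and Copz2 are paralogs that encode zeta subunits of the coatomer, a vesicle coat. Exons and introns of these genes were not used here. The hairpin of miR-152 is shown because its 2 arms illustrate the layout common to the family, with the family strand, in capitals, on the 3′ arm (chr11:96850393-96850465, plus strand).
Mir152 hairpin: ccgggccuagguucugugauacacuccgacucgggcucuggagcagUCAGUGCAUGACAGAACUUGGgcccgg
Of the opposite, passenger strands, the array held that of miR-148a only, as miR-148a* (chr6:51269867-51269888, minus strand).
miR-148a*: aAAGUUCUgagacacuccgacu

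The arrays differed in signal, and this touches each value below. The median raw intensity of the 145 empty control spots was 209, 490 and 530 scanner units on AA arrays 1 to 3, against 274, 168 and 189 on unaffected arrays 1 to 3. Detection on an array meant that the mean of a probe's 5 raw spots lay above the 95th percentile of these empty spots. The signal of an array over its empty spots, taken as a median ratio over the 88 probes detected on every array, was 3.33, 3.24 and 1.46 on AA arrays 1 to 3, and 4.20, 16.9 and 11.4 on unaffected arrays 1 to 3, so every AA array had less signal over background than every unaffected array. Keratinocyte miRNAs of the skin label, miR-203 and miR-205, were detected on all 6 arrays. Of the lymphocyte list, miR-150 was tested, and the 3 probes of miR-142 and miR-155 were detected on no array. The summed levels of the tested probes overlapped between the groups for all 8 lists of cell type miRNAs. A sum follows its brightest probes, and single probes could separate. Among the tested probes of these lists, miR-133b and miR-200a were lower on every AA array than on every unaffected array. That order held for 7.01% of the tested miRNAs. The keratinocyte list, which holds miR-200a, had lower AA means in 5 probes and a higher one in 1, miR-200c (0.28). The lymphocyte list, read from miR-150 alone, overlapped narrowly, from 9.11 to 9.85 in AA and from 8.34 to 9.13 in unaffected skin. The skeletal muscle list, for example, ran from 12.75 to 13.61 in AA and from 12.91 to 15.13 in unaffected skin (log2 of summed normalized intensity), with lower AA means in 4 of its 4 probes. The part of these differences in the family's values was not tested.

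The family was dim in this skin. None of the 3 members was detected on all arrays, and in AA skin miR-148a and miR-148b were not above background on any array. In AA skin miR-152 passed the detection level on 1 array of 3, and in unaffected skin on 2. For miR-148a the counts were 0 in AA and 2 in unaffected skin, and for miR-148b 0 in AA and 1 in unaffected skin. A higher count in unaffected than in AA skin, which all 3 members had, occurred for 13.0% of all 707 probes, and a lower count for 5.80%. In each case the undetected unaffected array included replicate 1, whose empty spots were brighter than its median miRNA spot of 168. The same held on AA array 2, with an empty-spot median of 490 against 399, and narrowly on unaffected array 2, with 167.5 against 165.6.

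miR-152 was the only member that reached the minimum of 3 detected arrays for the fit across miRNAs. Its raw intensity was 272, 588 and 567 on AA arrays 1 to 3, where the 95th percentile of the empty spots stood at 239.7, 599 and 572. On unaffected arrays 1 to 3 it was 321, 776 and 814, against 344, 197 and 229. On AA arrays 2 and 3 the probe therefore lay just under the detection level, whereas on unaffected arrays 2 and 3 it stood at 3.94 and 3.56 times that level.

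After background correction, averaging of spots and quantile normalization, the miR-152 level in log2 intensity was 8.06, 8.04 and 7.39 on AA arrays 1 to 3, and 8.27, 8.58 and 9.04 on unaffected arrays 1 to 3. The groups did not overlap, and AA arrays 1 and 2 lay close beneath unaffected array 1. AA skin averaged 7.83 ± 0.38 and unaffected skin 8.63 ± 0.38 (SD, n = 3 each), a log2 difference of -0.80. No fold is drawn from it, because the probe was above background on 1 AA array and 2 unaffected arrays only. The SD of log2 intensity among the 5 spots of an array ran from 0.057 to 0.30.

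miR-148a had raw intensities of 216, 418 and 551 on AA arrays 1 to 3, against 236, 561 and 464 on unaffected arrays 1 to 3. The raw values overlapped between the groups, and so did the empty-spot levels. On AA arrays 1 to 3 the probe stood at 1.03, 0.852 and 1.04 times the empty-spot median, and on unaffected arrays 1 to 3 at 0.860, 3.35 and 2.45 times. All 5 spots exceeded the detection level on unaffected arrays 2 and 3. On AA arrays 1 to 3, 1, 0 and 1 of the 5 spots did, and on unaffected array 1, 0 did.

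**Figure D1:**
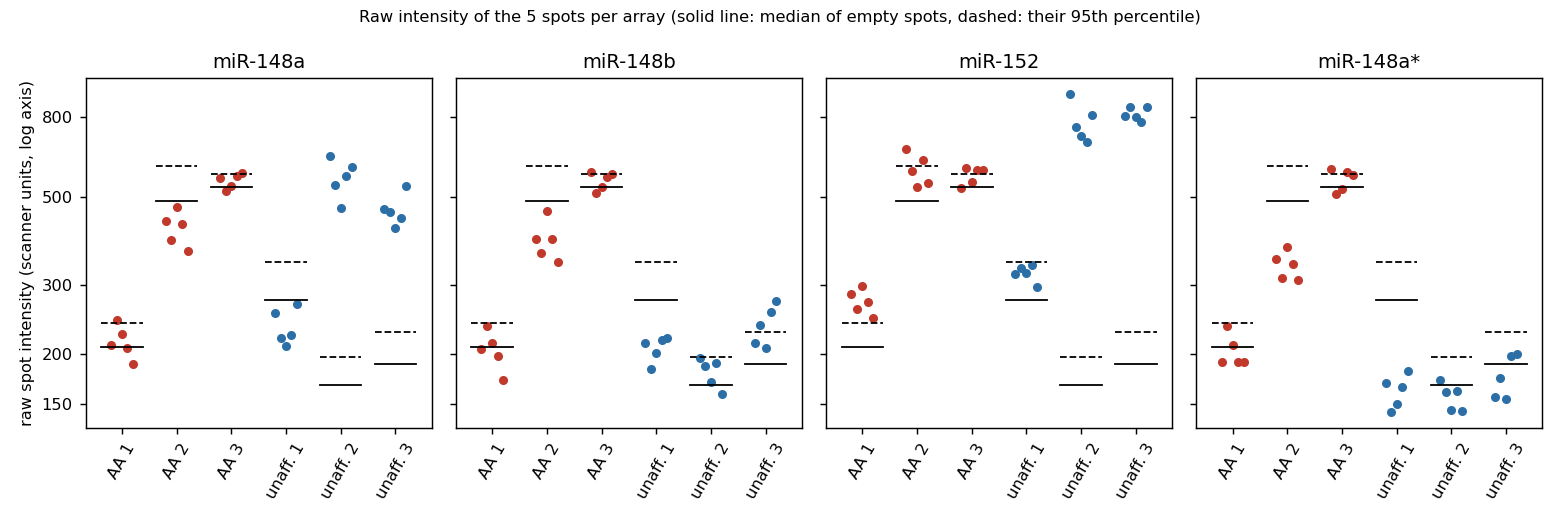
Raw intensity (scanner units, log axis) of the 5 spots of miR-148a, miR-148b, miR-152 and the passenger strand miR-148a* on AA arrays 1 to 3 (red) and unaffected arrays 1 to 3 (blue), with the median (solid) and 95th percentile (dashed) of the empty spots of each array. Spots of miR-148a and miR-152 stand clear of the dashed line on unaffected arrays 2 and 3, while miR-148a* was detected on 0 of 6 arrays.

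The normalized log2 level of miR-148a was 6.86, 7.06 and 7.06 on AA arrays 1 to 3, and 7.70, 8.27 and 8.14 on unaffected arrays 1 to 3. The 3 AA arrays lay together below all unaffected arrays, with means of 6.99 ± 0.12 for AA and 8.04 ± 0.30 for unaffected skin (SD, n = 3 each) and a log2 difference of -1.04. Because no AA array measured the probe above background, the AA level is only a bound. The lowest normalized level of any detected probe, a floor for what an array could measure, was 7.55, 8.10 and 7.41 on AA arrays 1 to 3. The unaffected mean was 1.28-fold above the mean of these floors, but it takes in unaffected array 1, where miR-148a was not detected, so this is not a strict lower limit.

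miR-148b was detected on the fewest arrays of the 3 members, 1 of 6. It had raw intensities of 205, 389.8 and 552 on AA arrays 1 to 3 and 207, 181 and 237 on unaffected arrays 1 to 3, which is 0.983, 0.795 and 1.04 times the empty-spot median in AA and 0.756, 1.08 and 1.25 times in unaffected skin. Its normalized log2 level was 6.60, 6.93 and 7.07 on AA arrays 1 to 3, and 7.48, 7.09 and 7.24 on unaffected arrays 1 to 3. The groups touch: AA array 3 and unaffected array 2 differed by less than the SD among the 5 spots of either array (0.32 and 0.19). AA skin averaged 6.87 ± 0.24 and unaffected skin 7.27 ± 0.20 (SD, n = 3 each), a log2 difference of -0.40. No fold is given, because the unaffected mean lay below the floor of the AA arrays.

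The passenger strand miR-148a*, usually the less abundant product of a hairpin, was detected on 0 of 6 arrays. Its normalized log2 levels were 6.59, 6.68 and 7.08 on AA arrays 1 to 3 and 6.83, 6.84 and 6.78 on unaffected arrays 1 to 3, with a log2 difference of -0.033. The AA values of miR-148a and miR-148b lay in the same range, between 6.60 and 7.07.

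**Figure D2:**
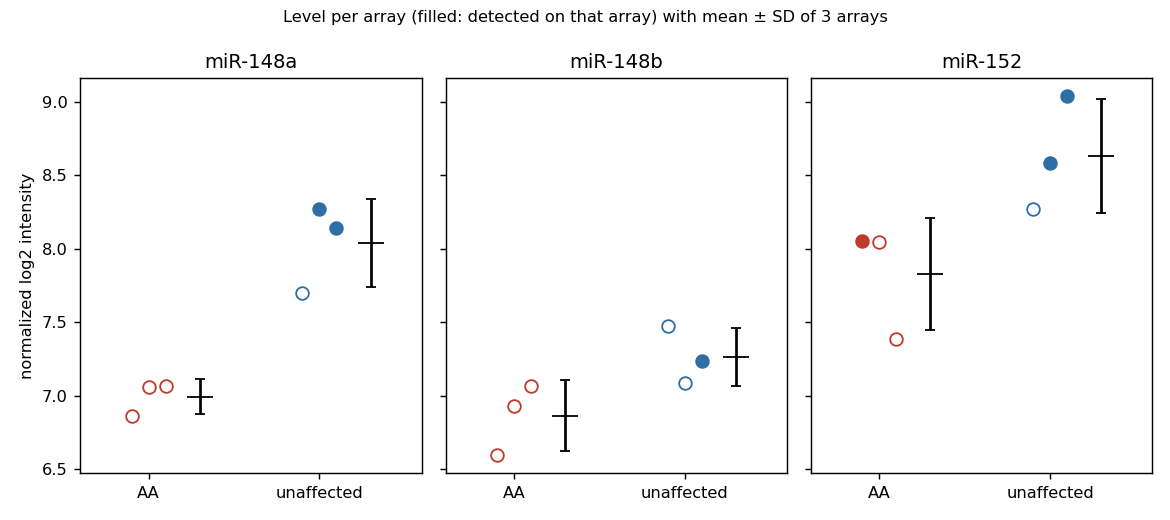
Normalized log2 intensity of miR-148a, miR-148b and miR-152 on each array (points, filled where the probe was detected on that array), with the mean ± SD of 3 arrays, AA left and unaffected right. Filled points are in the unaffected group except for miR-152 on AA array 1, and the AA values of miR-148a and miR-148b are all open points, not above background.

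Against the whole array, the pattern of the family has to be read beside how common it was. In the limma fit across the 157 miRNAs detected on at least 3 arrays, 0% were called at an adjusted p under 0.05 in either direction (0 higher, 0 lower, smallest adjusted p = 0.402), while 4 were higher and 8 lower in AA at an unadjusted p under 0.05. AA and unaffected values did not overlap, with AA lower, for 3 of the 3 members, for 7.36% of all 707 probes and for 7.01% of the tested ones. In the opposite direction the shares were 7.36% and 4.46%. Nothing is read from the family's count, since it was chosen with this contrast in view. The means were lower in AA for 46.4% of all probes, with a median log2 difference of 0.012, and for 53.5% of the tested ones. Being detected on no AA array and at least 2 unaffected arrays, as miR-148a was, occurred for 4.10% of all probes (29 of 707), and the reverse, no unaffected and at least 2 AA arrays, for 0%.

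Another scale divides the raw intensity by the median miRNA spot of the same array, with no background correction. On it miR-152 stood at 1.23, 1.48 and 1.02 on AA arrays 1 to 3 and at 1.91, 4.69 and 4.21 on unaffected arrays 1 to 3. The ratios of miR-148a were 0.973, 1.05 and 0.990 for the AA arrays, with 1.40, 3.39 and 2.40 for the unaffected arrays. Those of miR-148b were 0.926, 0.978 and 0.992 for the AA arrays, with 1.23, 1.09 and 1.23 for the unaffected arrays. On this scale every AA array was below every unaffected array for each member, whereas for background-corrected values without any scaling between arrays the groups overlapped for all 3. The order on the median-spot scale held for 20.9% of all probes and 68.2% of the tested ones, against 5.80% and 0% in the other direction, so on this scale the lower AA values were shared by most tested miRNAs.

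The signal of an array moved with the levels of 2 members. Over the 6 arrays, the normalized level of miR-152 correlated with the log2 of the array's signal over empty spots at r = 0.91, and that of miR-148a at r = 0.89. For miR-148b r was 0.25. Among the 157 tested miRNAs the median r was 0.050, and 7.64% (12) had an r at least as high as that of miR-148a. Every AA array had less signal than every unaffected array, so for members lower in AA a positive r follows largely from that order. Nothing is read from the share. These correlations are descriptions over arrays that fall into 2 groups, and the part of array signal in the lower AA levels was not tested.

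**Figure D3:**
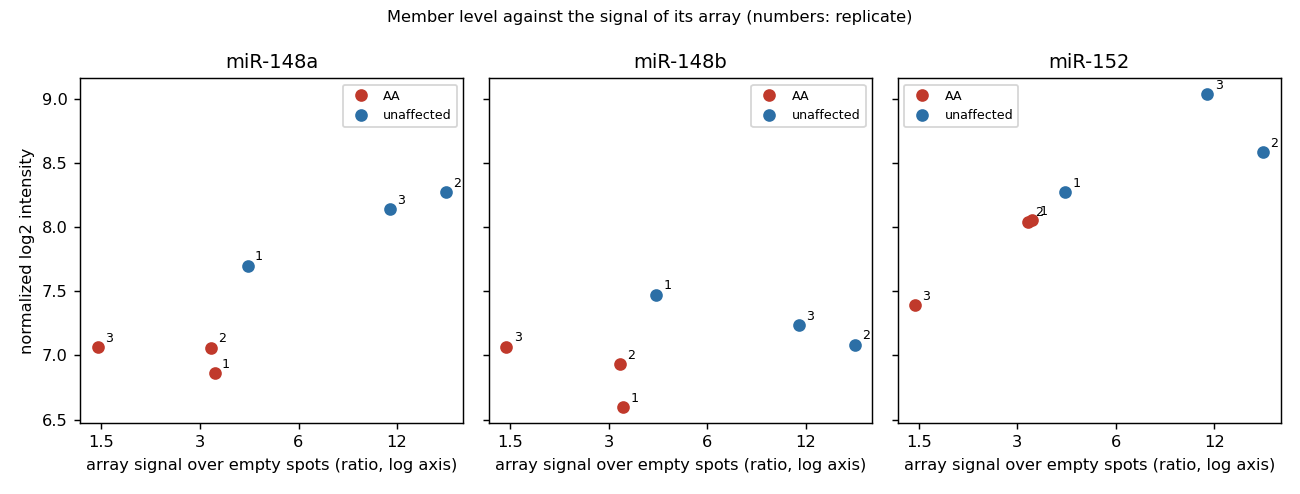
Normalized log2 intensity of each member against the signal over empty spots of its array (ratio, log axis), for AA (red) and unaffected (blue) arrays with replicate numbers. AA arrays lie at ratios of 1.46 to 3.33 and unaffected arrays at 4.20 to 16.9, and the correlation is r = 0.89 for miR-148a, 0.25 for miR-148b and 0.91 for miR-152, without a strict order within a group.

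Over the 6 arrays, with values at background included, normalized levels of miR-148a and miR-152 correlated at r = 0.81, those of miR-148a and miR-148b at r = 0.63, and those of miR-148b and miR-152 at r = 0.32. miR-148a and its passenger strand correlated at r = 0.18, with the passenger strand at background throughout.

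Outside the family, the tested probes with levels most like miR-152 over the 6 arrays, by Pearson correlation, were miR-30b (r = 0.97), miR-30c (0.95) and miR-100 (0.95). Those most like miR-148a were miR-10b (0.95), miR-30a (0.93) and miR-30c (0.93). Their own log2 differences between AA and unaffected skin ran from -0.92 for miR-30a to -1.46 for miR-30b. Their targets are 9 to 14 edits from those of the members they resemble. For miR-148b the most similar were miR-669f (0.82), miR-466i (0.82) and miR-674* (0.79), whose differences were -0.58, -0.86 and -0.35. miR-148b was above background on unaffected array 3 only, so its likenesses are largely to background values. Because all these probes were picked for likeness to members lower in AA, lower AA means follow largely from the pick. Nothing is read from their direction. Each of these likenesses rests on 6 arrays in 2 groups that also differ in array signal.

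**Figure D4:**
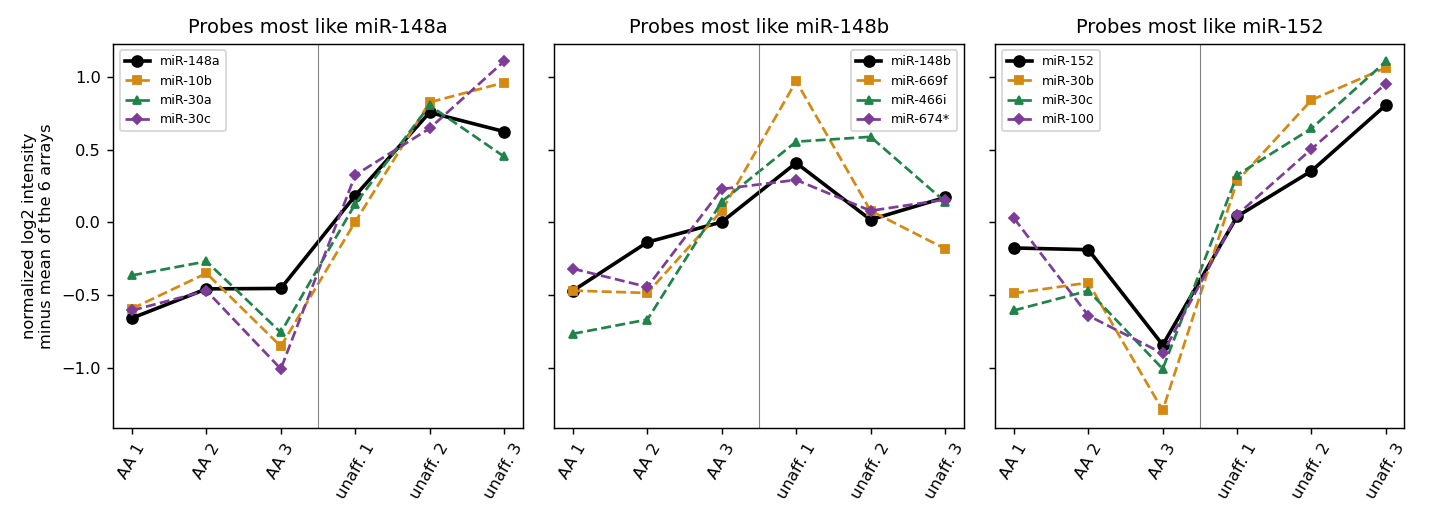
Normalized log2 intensity minus the mean of the 6 arrays for each member (black) and for the 3 tested probes most correlated with it, on AA arrays 1 to 3 and unaffected arrays 1 to 3; lines join the values of one probe and replicates have no order. miR-30c is among the 3 for both miR-148a (r = 0.93) and miR-152 (r = 0.95), and the values of miR-148b are at background on all arrays but unaffected array 3.

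DNA methyltransferase transcripts are also targets of other miRNAs, and 8 of these were taken as a list: miR-29a, miR-29b and miR-29c, known for acting on the de novo enzymes, miR-101a, miR-126-3p, miR-143, miR-185 and miR-342-3p. Some of these roles are known from human cells. All 8 were on the array and 4 were tested, of which 0 passed in either direction. The 4 had lower means in AA, as did 53.5% of all 157 tested miRNAs, and their groups overlapped in each case. Their median log2 difference was -0.29, against -0.039 over the tested miRNAs. miR-29a measured 10.96, 10.78 and 10.87 on AA arrays 1 to 3 and 9.99, 12.17 and 11.65 on unaffected arrays 1 to 3, so unaffected array 1 lay below every AA array. miR-126-3p, an endothelial miRNA, averaged 9.19 ± 0.45 on AA arrays and 10.20 ± 1.12 on unaffected arrays (SD, n = 3 each). miR-143 differed by -0.19 and miR-185 by -0.12. Of the 4 not tested, miR-29b, miR-29c and miR-101a had the detection counts of miR-148a, 0 in AA and 2 in unaffected skin. Detection on no AA array and at least 2 unaffected arrays occurred for 4.10% of all 707 probes. miR-342-3p was detected on 1 AA and 1 unaffected array. Its mean was higher in AA by 0.051, while the means of miR-29b, miR-29c and miR-101a were lower.

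In the authors' deposited table of processed intensities, miR-152 stood at 177, 179 and 167 on AA arrays 1 to 3 and at 220.5, 338 and 412 on unaffected arrays 1 to 3. For miR-148a the authors' deposited table gave 48.4, 68.8 and 101 for AA and 129.9, 276 and 223 for unaffected skin. For both, every AA array lay below every unaffected array, with log2 differences of -0.85 and -1.52 computed from the authors' deposited table. How often this order held over all its probes was not counted. By the raw spots miR-148a was above background on 0 AA arrays and miR-152 on 1, so the sizes of these differences are not measured levels. For miR-148b the authors' deposited table gave 28.4, 45.4 and 66.6 for AA and 91.7, 49.1 and 71.3 for unaffected skin, which overlapped.

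The sign of the differences depended on how arrays were scaled. When arrays were aligned at the 75th percentile of those probes that every array detected, differences on the log2 scale came to 0.096 for miR-152, 0.23 for miR-148a and 1.27 for miR-148b, and the groups overlapped for all 3. That scaling put the median of all tested miRNAs at 0.53. Relative to this median miR-152 (-0.43) and miR-148a (-0.30) stayed lower in AA and miR-148b (0.74) was higher.

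**Figure D5:**
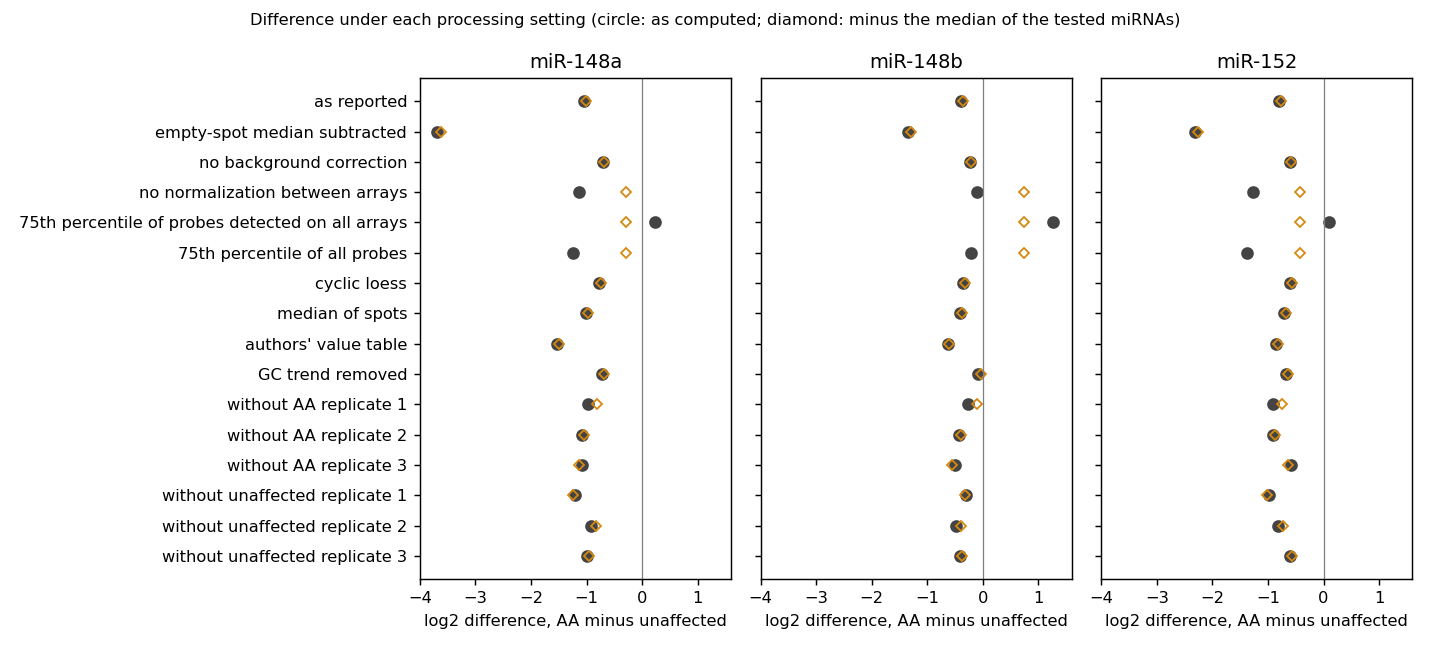
Log2 difference, AA minus unaffected, of each member under the reported setting and the alternatives that change it (circles), and the same minus the median difference of the tested miRNAs (diamonds). The diamonds of miR-148a and miR-152 are below 0 in every setting shown, while those of miR-148b are at 0.74 without normalization and under both percentile scalings. These last settings differ only by a constant per array, so their diamonds coincide and count as one result.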

How the data were processed

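MiRNA levels were measured on 6 µParaflo arrays of 1 colour (Cy3), 3 of AA and 3 of unaffected skin, grouped by the sample descriptions. The files deposited by the authors hold the raw mean intensity of each spot, with no background subtraction, and a table of processed intensity whose scaling method is unknown here. On the log2 scale, that table and the background-subtracted scanner values had r = 0.989 to 1.00 for each array over probes detected on all 6. Its values were therefore taken as linear and in the same direction. No member is among these probes, so the check does not cover the members' intensities. The column medians of that table were 37.8, 44.2 and 34.2 in AA replicates 1 to 3 and 43.2, 37.9 and 39.0 in unaffected replicates 1 to 3. The table served as an alternative. Per the labels' protocols, RNA was tailed with poly(A) and joined to a tag for staining, whereas their extraction text speaks of biotin labelled cRNA. Image software and miRBase release: not given in the sources used here.

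Raw intensities of all 3968 spots were corrected with normexp (offset 50) with limma 3.58.1 in R 4.3.3. Spots were averaged per probe (5 each) after taking log2, and arrays were quantile-normalized over 707 probes. The 157 probes detected on at least 3 arrays were fitted by limma (lmFit, eBayes, two-sided, Benjamini-Hochberg, threshold 0.05) with no block. The offset compresses differences of dim probes. In simulated data for this comparison (157 probes, 30 changed, 20 runs) the fit recovered 23.5% of changes of 2-fold, 76.0% of those of 4-fold and 94.0% of those of 8-fold, and 5.60% of the calls were false. The number of arrays limits the precision.

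The members and lists were chosen with earlier results of these data known. Named besides the members were the passenger strands on the array, the 3 tested probes most correlated with each member, and the 8 miRNAs of the DNA methyltransferase list; the rule also covered probes with the members' seed or a target within 6 edits, of which there were none. The labels do not say that replicate numbers pair mice, so the numbers were not taken as pairs. Same-numbered arrays deviated from their group means at r = 0.14, -0.10 and -0.12. The highest r with an array of another number was 0.15, 0.25 and 0.25. With 3 arrays per group these values cannot decide whether the numbers pair mice.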

Additional observations from a re-analysis of the deposited data

How the results depend on the processing

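Over the 15 alternatives that can change a member's difference, the AA mean was the lower one in 14 for each of miR-148a, miR-148b and miR-152, the exception being alignment of arrays at the 75th percentile of those probes that every array detected (0.23, 1.27 and 0.096). The groups did not overlap in 12, 8 and 13 of the 15. The share of all probes with this order, 7.36% under the reported setting, was not counted under these alternatives, so nothing is read from these counts. Relative to the median of the fitted miRNAs, miR-148a and miR-152 were lower in AA in 15 of 15 and miR-148b in 12. The members were chosen with this contrast in view, so nothing is read from these counts either. These alternatives are not independent. No normalization and both percentile scalings differ only by a constant per array, which cancels here. They gave one and the same result: -0.30 for miR-148a, -0.43 for miR-152 and 0.74 for miR-148b. The settings with 1 array left out share most of their arrays. With the empty-spot median subtracted, the log2 differences were -3.69 for miR-148a, -1.35 for miR-148b and -2.32 for miR-152; values at the floor of 1 scanner unit enter these. With no background correction miR-148a was at -0.71, with cyclic loess at -0.78. With the trend on target GC content removed miR-148a was at -0.73 and miR-148b at -0.084, and in the authors' deposited table they were at -1.52 and -0.63. Without normalization between arrays miR-148b was at -0.10 and miR-152 at -1.28, and aligned at the 75th percentile over all 707 probes miR-152 was at -1.38; under these settings the tested miRNAs had a median of -0.84 and -0.95. With 1 array left out, the differences ran from -1.21 to -0.93 for miR-148a, -0.50 to -0.27 for miR-148b and -0.98 to -0.58 for miR-152. The count of miRNAs called by limma ran from 0 to 5 with 1 array left out, with 5 without unaffected replicate 1 and 2 without unaffected replicate 2, and was 0 under every other alternative. With the replicate block it was 0, with 3 higher and 7 lower at an unadjusted p under 0.05, and each member's difference was the same (miR-148a -1.04, miR-148b -0.40, miR-152 -0.80). No member was detected on all 6 arrays, so that filter gave them no value. No fit with the slide as a block was run, since slides are not named in the files. Signal over background limits the family: members at the empty-spot level carry a bound rather than a level.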
